A study of Mus musculus with 9 samples.

Results

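Histone genes were examined in poly(A)-selected RNA from mouse AKP tumour organoids. They were chosen by gene name and not by a measured value: every protein-coding gene of GENCODE M21 whose symbol starts with Hist1h, Hist2h, Hist3h, Hist4h, H2af or H3f3, or is H1f0 or H1fx. This selected 80 of the 21253 genes in the count table. Of these, 61 are core replication-dependent genes (18 H2A, 18 H2B, 12 H3 and 13 H4), 6 are linker replication-dependent genes, 11 are core variants and 2 are linker replacement genes. On the genome 55 lie on chromosome 13 and 11 on chromosome 3.

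The 9 samples came in 3 groups of 3. Control organoids were kept in doxycycline, which holds Apc silenced by a short hairpin RNA, and the remaining organoids went without it for 2 days or for 7 days, which restores Apc. All samples are of a single organoid line, so the other lesions of the line are shared by controls as well. Replicates are labelled as technical, and a p-value here is therefore set against the spread of these 3 samples and no wider one. Doxycycline removal, Apc restoration and time in culture cannot be told apart.

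As background, DNA is wound around octamers of the core histones H2A, H2B, H3 and H4, and linker histone H1 binds where DNA enters and leaves them. Replication-dependent histone genes are clustered, mostly lack introns and are transcribed mainly in S phase, and their mRNAs normally end in a conserved stem-loop, bound by SLBP, in place of a poly(A) tail. Variant and replacement histone genes are made through the whole cell cycle, mostly have introns and yield polyadenylated mRNAs. Some replication-dependent genes also give polyadenylated transcripts, which is the form that poly(A) selection retains. A rise or fall of such a gene below is therefore one of its transcripts that passed the poly(A) selection. Whether each of these carried a poly(A) tail was not tested. A change in all transcripts of the gene and a change in the polyadenylated part cannot be told apart here.

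Libraries held 24143589 to 32277040 counts and 14925 to 15574 genes with a count. The 7 markers of intestinal epithelium summed to 11000 ± 1530 CPM (counts scaled to a library of 1000000) in controls, 14800 ± 1030 CPM at 2 days and 31100 ± 4790 CPM at 7 days (SD, n = 3). Sums were at most 1.12 CPM in any sample for 5 fibroblast markers, 4.63 CPM for 4 leukocyte markers, 0.551 CPM for 3 endothelial markers and 0.22 CPM for 3 germ cell markers. Of the epithelial markers 6 were higher at 7 days than in controls (edgeR, adjusted p under 0.05), with log2 fold changes from 0.21 for Cdh1 to 2.15 for Krt19, and Cdx2 was not called (-0.06). Most of the sum came from the keratins Krt8, Krt18 and Krt19. Of the other lists 2 genes had enough counts to test at 7 days against control, Cd68 of the leukocyte list (1.59, higher) and Col1a2 of the fibroblast list (-2.20, lower). The leukocyte sum was 3.6 ± 0.906 CPM at 7 days and 1.36 ± 0.128 CPM in controls, while Ptprc was at most 0.276 CPM in any sample. The fibroblast sum was 0.289 ± 0.185 CPM at 7 days and 0.949 ± 0.169 CPM in controls. The part of these markers in the histone results was not tested, and in bulk RNA fewer cells of a type and less RNA per cell cannot be told apart.

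The 3′ ends show which of these transcripts carry the signal of a normal histone mRNA. A stem-loop, searched after the stop codon as a perfectly paired stem of 6 bases that begins with GG, with a loop of 4 bases that begins with TT, was found in the annotated transcripts of 44 of the 67 replication-dependent members. In 22 of these the annotated transcript ran at least 100 bases past the stem-loop, and 16 had a polyadenylation hexamer (AATAAA or ATTAAA) downstream of it. H2afx was the 1 variant with a match. Another 15 replication-dependent transcripts are annotated to end within 2 bases of the stop codon, where no match could be found. The 45 matches took 7 forms, and 26 were of a single form that members of the H1, H2A, H2B and H3 families share. The stem-loops below are those of genes whose levels are described next, with stem and loop in capitals and 5 bases on either side, 5′ to 3′ on the gene's strand (GRCm38, GENCODE M21).
Hist1h1c: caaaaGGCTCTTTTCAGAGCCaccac
Hist1h2ac: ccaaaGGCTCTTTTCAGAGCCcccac
Hist1h2ao: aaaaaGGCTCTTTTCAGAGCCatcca
Hist1h2be: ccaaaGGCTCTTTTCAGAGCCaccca
Hist2h2ac: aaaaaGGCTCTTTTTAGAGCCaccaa
Hist1h4i: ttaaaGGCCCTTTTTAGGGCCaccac
H2afx: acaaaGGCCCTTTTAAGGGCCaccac

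The Hist1h1c element lies on the plus strand at chr13:23739507-23739532, and its annotated transcript runs 840 bases further. Reads past the stem-loops were not examined. The elements of Hist1h2ac (chr13:23683472-23683497, minus strand) and Hist1h2be (chr13:23585526-23585551, minus strand) are followed by 2010 and 1861 bases of annotated transcript. The Hist1h4i element (chr13:22040961-22040986, minus strand) is followed by 330 bases, and that of H2afx (chr9:44335235-44335260, plus strand) by 822. In contrast, the annotated Hist1h2ao transcript ends 31 bases after its element (chr13:21810893-21810918, plus strand), and that of Hist2h2ac ends 57 bases after it (chr3:96220413-96220438, minus strand). At 7 days 7 of 19 tested members with a long extension were called higher and 10 lower than controls (edgeR, adjusted p under 0.05), and 7 higher and 13 lower of 20 with a short one, where 40.5% of all genes tested were higher and 41.8% lower. In both sets the share called lower was above that of all genes, more so with a short extension, and the share called higher was slightly below it. Neither the difference from all genes nor that between the sets was tested.

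Near-identical copies limit what the counts of single genes mean. The 80 genes encode 43 distinct proteins, all 13 H4 genes encode the same protein, and 9 of the 18 H2A genes share another. In 31 members fewer than 50% of the 75-base words in the annotated transcripts were found in no other gene. In 5 sets holding 11 members, formed by the counts alone, the counts differed by at most 5% in every sample. Hist1h2ao and Hist1h2ap shared 378 words, and their counts differed by at most 0.23%. Hist1h2bq and Hist1h2br shared 1936 words and had equal counts in 5 of 9 samples. Copies that share most of their words cannot be separated here, and a sum over a family can count a read more than once. Hist1h2bl and Hist1h2bm form 1 of the sets but shared 65 words, and 83.1% of the words of Hist1h2bm are its own.

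The families moved apart once doxycycline had been removed. At 2 days H2B, H3, H4 and most linker genes were higher than in controls while H2A genes were not, and at 7 days H2B and the abundant linker genes were higher while H2A and H4 genes were lower. Of the 66 members with enough counts to test (edgeR, Benjamini-Hochberg adjusted p under 0.05 over 12535 genes), 40 rose and 0 fell at 2 days against control, where 13.1% of all genes tested rose and 10.6% fell. The members' median log2 fold change was 0.55, beside 0.00 over all genes. With an unadjusted p under 0.05, 45 members were higher and 1 lower, and the DESeq2 Wald test called 39 higher and 0 lower. The count of 40 fell to 26 without the third 2-day sample. At 7 days against control 22 members rose and 38 fell, where 40.5% of all genes rose and 41.8% fell, and the median was -0.51 beside -0.03. At 7 days against 2 days 19 rose and 42 fell (3 and 45 with library size as the sole scaling), where 39.2% of all genes rose and 39.9% fell, and the median was -1.12 beside -0.03. The counts in the 7-day comparisons as a whole therefore lie nearer to the background than those at 2 days. The comparisons share samples and are not independent of each other.

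**Figure D1:**
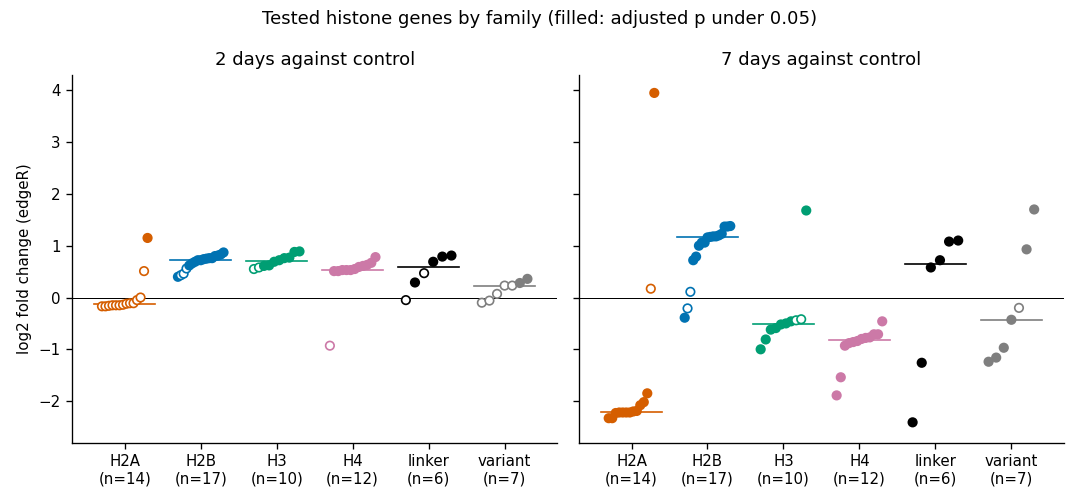
Log2 fold changes (edgeR) of the 66 tested histone genes at 2 days (left) and 7 days (right) against control, by family; each point is a gene, filled where the adjusted p was under 0.05, and lines are family medians. At 7 days the H2A genes lie near -2.21 and the H2B genes near 1.16, with Hist2h2ac alone at 3.95 among the H2A genes.

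Linker histone H1 genes split by subtype. Hist1h1c, Hist1h1d and Hist1h1e rose at both times, H1f0 rose too, and Hist1h1a and Hist1h1b fell at 7 days. Per kilobase of exon, H1f0 was the most abundant of them at 130 CPM per kb in controls, 159 at 2 days and 194 at 7 days, and Hist1h1c was next at 59.1, 103 and 125. The other tested linker genes were at most 6.74 CPM per kb in any group. Hist1h1t, the testis subtype, had 4 reads in all the 2-day samples and 0 in the others.

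H1f0 encodes H1.0, the replacement linker histone that accumulates in cells that stop dividing. It measured 263, 260 and 277 CPM in the controls, 304, 314 and 363 CPM in the 2-day samples and 399, 395 and 402 CPM in the 7-day samples. The groups did not overlap, and the third 2-day sample was the highest of its group. Against control its log2 fold change was 0.29 ± 0.08 (SE) at 2 days (adjusted p = 0.017) and 0.58 ± 0.08 at 7 days (adjusted p = 9e-06). The 2-day call was lost without control replicate 1, control replicate 2 or 2-day replicate 3 (adjusted p 0.056 to 0.089), and with library size as the sole scaling the 7-day value was 0.18 and no longer passed.

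Hist1h1c encodes H1.2, in most cell types an abundant H1. It measured 97.7, 93.0 and 86.0 CPM in the controls, 168, 156 and 160 CPM in the 2-day samples and 210, 204 and 170 CPM in the 7-day samples. Each 2-day and 7-day sample lay above all controls. The log2 fold change against control was 0.81 ± 0.09 at 2 days (adjusted p = 7.6e-06) and 1.08 ± 0.09 at 7 days (adjusted p = 2.1e-08). Hist1h1d, which encodes H1.3, averaged 7.32 ± 0.988, 11.8 ± 0.46 and 12.1 ± 1.32 CPM in controls, at 2 days and at 7 days (SD, n = 3). Hist1h1e, which encodes H1.4, measured 5.91, 6.83 and 5.32 CPM in the controls, 11.2, 10.3 and 9.82 CPM in the 2-day samples and 14.0, 13.3 and 11.6 CPM in the 7-day samples. Both were higher than control at 2 days (log2 fold changes 0.69 and 0.79) and at 7 days (0.72 and 1.10). From 2 to 7 days H1f0 (0.29), Hist1h1c (0.27) and Hist1h1e (0.31) passed the test as higher, but with library size as the sole scaling these values turned to -0.13, -0.15 and -0.11, and that of Hist1h1e also lost its call when any 1 of 4 libraries was left out (adjusted p 0.051 to 0.073; 2-day replicates 2 and 3, 7-day replicates 1 and 2). Of the exon bases of Hist1h1e, 25.7% lie within other annotated genes, Hist1h2be among them.

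Hist1h1a and Hist1h1b, which encode H1.1 and H1.5, were near the lower limit of the assay. Hist1h1b measured 0.695, 0.717 and 0.497 CPM in the controls, 0.643, 0.796 and 0.43 CPM in the 2-day samples and 0.13, 0.0375 and 0.183 CPM in the 7-day samples. The 7-day samples lay below all others, while the 2-day and control samples overlapped. The log2 fold change at 7 days against control was -2.41 ± 0.45 (adjusted p = 0.00015). For Hist1h1a it was -1.26 ± 0.41 (adjusted p = 0.01), with 0.194 ± 0.0277 CPM at 7 days and 0.48 ± 0.121 CPM in controls. The share of Hist1h1c in the summed CPM per kb of the 6 tested linker genes was 30.4 ± 1.87% in controls, 38.2 ± 2.51% at 2 days and 38.0 ± 2.76% at 7 days (SD, n = 3). The share of H1f0 was lower at both times, at 66.8 ± 2.19%, 58.6 ± 2.89% and 59.3 ± 2.87% in the same order. Each difference from control had p = 0.1 in a two-sided exact permutation test, the smallest that 3 against 3 samples allow.

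**Figure D2:**
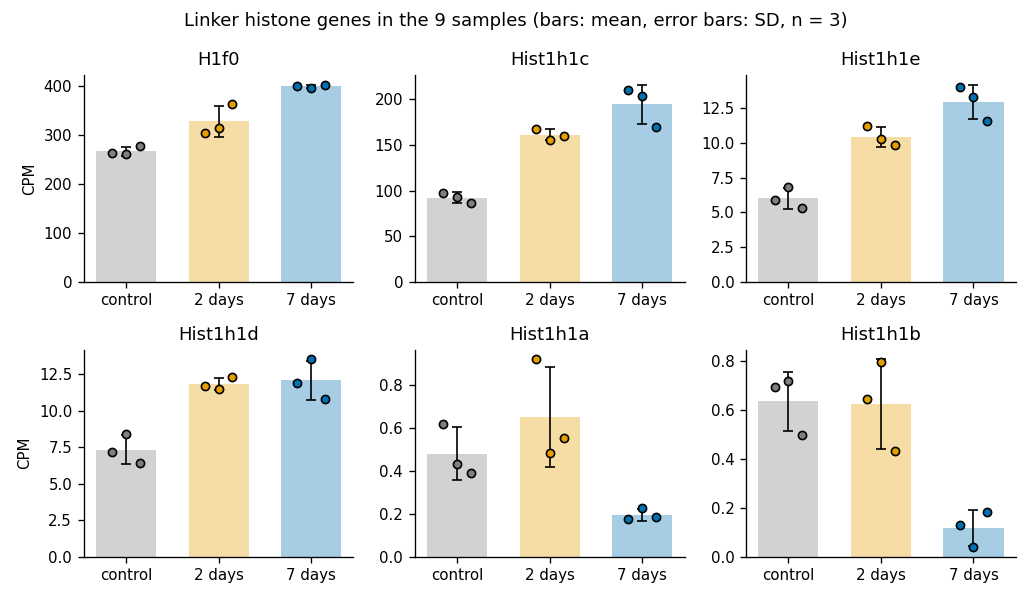
CPM of the 6 tested linker histone genes in the 9 samples by group; points are samples, bars are means and error bars are SDs (n = 3). H1f0, Hist1h1c, Hist1h1e and Hist1h1d are higher in both groups without doxycycline, and Hist1h1a and Hist1h1b are lowest at 7 days.

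The H2A genes of the large chromosome 13 cluster were not called at 2 days and were 3.61-fold to 5.02-fold lower than in controls at 7 days. Of 14 tested H2A genes 1 rose, 0 fell and 13 were not called at 2 days against control. Of all genes tested 13.1% rose and 10.6% fell in that comparison. With an unadjusted p under 0.05, 1 H2A gene was higher and 0 lower, and DESeq2 called 1 higher and 0 lower. At 7 days 12 fell and 1 rose against control (median log2 fold change -2.21), where 41.8% of all genes tested fell and 40.5% rose. Some of the 12 are near-identical copies, such as Hist1h2ao and Hist1h2ap, and are not separate observations. In all 12, part of the exon bases lies within other annotated genes, from 9.91% for Hist1h2ac to 35.9% for Hist1h2an. The same holds for Hist2h2ac (27.1%) and Hist3h2a (33.0%), but among tested H2B genes for Hist1h2be alone. The part of this overlap in the difference between the families was not tested. The summed H2A level was 468 ± 59.9 CPM in the controls, 428 ± 39.4 CPM in the 2-day samples and 106 ± 17.9 CPM in the 7-day samples (SD, n = 3), a sum in which a shared read can be counted more than once.

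Hist1h2ap measured 98.8, 112 and 85.8 CPM in the controls, 97.3, 86.2 and 80.6 CPM in the 2-day samples and 23.1, 19.0 and 17.0 CPM in the 7-day samples. The 7-day samples lay far below both other groups, which overlapped. Its log2 fold change was -2.33 ± 0.12 at 7 days against control (adjusted p = 1.1e-10) and -0.17 ± 0.11 at 2 days (adjusted p = 0.33), and Hist1h2ao gave the same values within 0.01. Hist1h2ag (-2.22), Hist1h2af (-2.22) and Hist1h2ak (-2.23) fell by similar amounts at 7 days. Hist1h2ac, chosen after its values had been seen because 88.9% of its words are its own, measured 32.2, 33.7 and 25.2 CPM in the controls, 35.9, 28.3 and 26.9 CPM in the 2-day samples and 8.91, 7.55 and 6.16 CPM in the 7-day samples. Its 7-day samples were again the lowest without overlap, with a log2 fold change of -2.02 ± 0.15 (adjusted p = 7.3e-09).

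H2A genes outside that cluster went other ways. Hist2h2ac, on chromosome 3, measured 0.463, 0.287 and 0.248 CPM in the controls, 0.52, 0.346 and 0.522 CPM in the 2-day samples and 5.58, 5.89 and 3.92 CPM in the 7-day samples. The 7-day samples stood above all others, and the controls and 2-day samples overlapped. Its log2 fold change at 7 days was 3.95 ± 0.25 against control (adjusted p = 9.6e-10) and 3.44 ± 0.23 against 2 days (adjusted p = 2.5e-09), the largest rise among the tested members in both comparisons. Hist3h2a, on chromosome 11 and chosen after its values had been seen, measured 1.58, 1.41 and 2.17 CPM in the controls, 3.86, 3.63 and 3.9 CPM in the 2-day samples and 1.9, 2.33 and 1.54 CPM in the 7-day samples. The 2-day samples stood above both other groups, with a log2 fold change of 1.15 ± 0.18 against control (adjusted p = 0.00022).

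Most H2B genes rose at both times. Of 17 tested, 14 rose and 0 fell at 2 days against control, and 14 rose and 1 fell at 7 days (median log2 fold change 1.16). Of all genes tested 13.1% rose and 10.6% fell at 2 days, and 40.5% rose and 41.8% fell at 7 days. Near-identical copies such as Hist1h2bq and Hist1h2br are counted here as separate genes. At an unadjusted p under 0.05, 16 were higher and 0 lower at 2 days, and DESeq2 called 14 higher and 0 lower. The summed H2B level was 104 ± 7.04 CPM in the controls, 170 ± 16.9 CPM in the 2-day samples and 221 ± 5.96 CPM in the 7-day samples (SD, n = 3). From 2 to 7 days 12 passed the test as higher and 2 as lower. Of all genes tested 39.2% were higher and 39.9% lower. The 2 were Hist2h2be (-0.79) and Hist3h2ba (-1.08). Against control Hist3h2ba was higher at 2 days (0.87) and was not called at 7 days (-0.21). With library size as the sole scaling 0 of the H2B genes passed as higher and 3 as lower.

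Hist1h2bc, the most abundant H2B gene per kilobase, measured 39.4, 40.1 and 43.0 CPM in the controls, 64.8, 67.1 and 75.3 CPM in the 2-day samples and 94.5, 93.7 and 93.5 CPM in the 7-day samples. The groups were fully separate, in the order of time. Its log2 fold change was 0.76 ± 0.08 at 2 days (adjusted p = 3.4e-06) and 1.20 ± 0.08 at 7 days (adjusted p = 1.1e-09) against control. Hist1h2be (0.80 at 2 days and 1.37 at 7 days), Hist1h2bg (0.62 and 1.06) and Hist1h2bl (0.83 and 1.38) did likewise. The 2-day call of Hist1h2bl was lost without control replicate 2 or 2-day replicate 3 (adjusted p 0.057 and 0.076). Hist1h2be shares 11.2% of its exon bases with other annotated genes, Hist1h1e among them.

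Hist2h2be was the 1 tested H2B gene that fell at 7 days, and none of its words occurs elsewhere. It measured 7.22, 7.0 and 6.25 CPM in the controls, 8.45, 9.58 and 9.05 CPM in the 2-day samples and 4.72, 6.04 and 4.87 CPM in the 7-day samples. The groups did not overlap, with 2 days highest and 7 days lowest. Against control the log2 fold change was 0.40 ± 0.12 at 2 days (adjusted p = 0.021) and -0.39 ± 0.13 at 7 days (adjusted p = 0.01), and the 2-day call was lost when any of 4 libraries was left out (control replicates 2 and 3, 2-day replicates 2 and 3, adjusted p 0.055 to 0.072).

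Many H2A and H2B genes are arranged head to head and share the DNA between their starts. Among the members 12 such pairs had starts at most 500 bases apart, and in 11 both genes were tested. In 9 of the 11 the H2A gene fell and the H2B gene rose at 7 days against control. Of all genes tested 41.8% fell and 40.5% rose in that comparison. The pairs are not all separate observations. Hist1h2ao with Hist1h2bq and Hist1h2ap with Hist1h2br are near-identical copies of each other. The counts of Hist1h2ah and Hist1h2an differed by at most 1.03%. Unique words were also under 50% in Hist1h2ad (34.5%), Hist1h2ag (22.4%), Hist1h2ah (8.46%), Hist1h2ai (10.7%) and Hist1h2an (15.4%). Of the 9 pairs, both genes had at least 50% unique words in Hist1h2ac with Hist1h2bc and Hist1h2ae with Hist1h2bg alone. In the Hist1h2ak and Hist1h2bn pair the H2B gene, at 0.396 ± 0.107 CPM at 7 days and 0.367 ± 0.0717 CPM in controls, was not called. The remaining pair ran the other way, with Hist2h2ac higher (3.95) and Hist2h2be lower (-0.39).

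The DNA between the starts is shown for 2 pairs with opposite outcomes, Hist1h2ac with Hist1h2bc, whose starts lie 251 bases apart, and Hist2h2ac with Hist2h2be, whose starts lie 239 bases apart. Both are RefSeq promoter windows (GRCm38.p6) of the H2A gene on the minus strand, from 250 bases upstream of its start to 50 bases downstream, at chr13:23683910-23684209 and chr3:96220831-96221130. Capitals mark the CCAAT box, the TATA box searched as TATAAA, and the octamer searched as ATTTGCAT, each on either strand. Each window holds 3 CCAAT boxes, 1 TATA box and 1 octamer.
Hist1h2ac: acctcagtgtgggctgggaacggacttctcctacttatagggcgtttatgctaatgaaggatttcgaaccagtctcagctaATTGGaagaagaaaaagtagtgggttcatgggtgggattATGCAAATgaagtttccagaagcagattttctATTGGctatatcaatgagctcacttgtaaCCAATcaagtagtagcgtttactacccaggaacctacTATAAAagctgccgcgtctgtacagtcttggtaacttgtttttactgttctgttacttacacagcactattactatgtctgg
Hist2h2ac: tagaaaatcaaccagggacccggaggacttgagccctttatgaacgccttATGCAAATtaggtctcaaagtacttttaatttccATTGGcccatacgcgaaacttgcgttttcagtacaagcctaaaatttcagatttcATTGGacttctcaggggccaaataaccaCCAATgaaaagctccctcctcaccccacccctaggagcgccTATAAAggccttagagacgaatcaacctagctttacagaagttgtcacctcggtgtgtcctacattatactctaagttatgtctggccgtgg

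**Figure D3:**
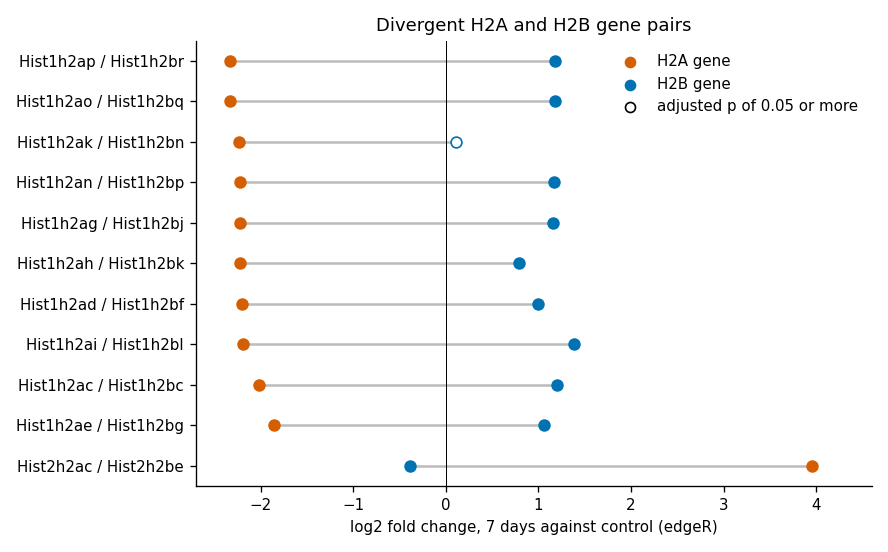
Log2 fold changes (edgeR) at 7 days against control for the 11 divergent gene pairs in which both genes were tested; each row is a pair, with the H2A and the H2B gene joined by a line, and open points had an adjusted p of 0.05 or more. The H2A genes lie left of 0 and the H2B genes right of 0 in every pair but Hist2h2ac and Hist2h2be.

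The same motifs were searched in all RefSeq windows of this length. For 74 of the 80 members a window was found. The CCAAT box was present in 83.8% of these and in 37.4% of all 32851 windows, the TATA box in 48.6% and 13.6%, and the octamer in 18.9% and 1.74%. CCAAT boxes were in all 18 H2A and all 16 H2B windows and in 3 of 12 H4 windows. The H1 box AAACACA was in 5 of 6 linker replication-dependent windows and in 7.18% of all windows. Hist1h1a was the 1 without it. Hist1h1b, which also fell at 7 days, and the rising Hist1h1c, Hist1h1d and Hist1h1e each held 1 match. The windows of Hist1h1c and Hist1h1a are shown as one with and one without the box (GRCm38.p6, plus strand, chr13:23738557-23738856 and chr13:23763418-23763717). Capitals mark the CCAAT box, the TATA box and the H1 box.
Hist1h1c: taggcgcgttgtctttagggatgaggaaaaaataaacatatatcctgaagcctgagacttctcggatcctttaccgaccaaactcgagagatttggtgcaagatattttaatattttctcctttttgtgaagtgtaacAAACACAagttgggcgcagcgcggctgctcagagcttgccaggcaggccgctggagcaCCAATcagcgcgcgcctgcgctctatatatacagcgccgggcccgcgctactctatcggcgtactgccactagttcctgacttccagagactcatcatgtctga
Hist1h1a: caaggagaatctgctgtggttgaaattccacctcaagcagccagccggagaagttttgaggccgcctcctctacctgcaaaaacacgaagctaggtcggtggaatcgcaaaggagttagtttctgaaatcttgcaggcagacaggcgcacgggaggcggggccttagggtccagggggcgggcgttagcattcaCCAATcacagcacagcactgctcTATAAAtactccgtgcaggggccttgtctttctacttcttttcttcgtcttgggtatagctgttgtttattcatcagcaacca

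H4 genes were higher at 2 days and lower at 7 days, and H3 genes were higher at 2 days. The summed H4 level was 45.6 ± 1.75 CPM in the controls, 66.5 ± 7.38 CPM in the 2-day samples and 23.3 ± 3.8 CPM in the 7-day samples (SD, n = 3). The summed H3 level was 13.8 ± 1.95 CPM in the controls, 22.7 ± 0.847 CPM in the 2-day samples and 12.9 ± 1.6 CPM in the 7-day samples, where 7 days and control differed by less than the spread between samples. As background for the counts that follow, 13.1% of all genes tested rose and 10.6% fell at 2 days against control. At 7 days 40.5% rose and 41.8% fell. Of 10 tested H3 genes 8 rose and 0 fell at 2 days against control (10 higher and 0 lower at an unadjusted p under 0.05, and 7 higher and 0 lower by DESeq2). Of the same H3 genes 1 rose and 7 fell at 7 days (median log2 fold change -0.51). The 8 became 5 without control replicate 1, and the 7 became 2 without control replicate 2, without 7-day replicate 3 or with the DESeq2 Wald test, and 4 with DESeq2 size factors. Of 12 tested H4 genes 11 rose and 0 fell at 2 days (11 higher and 1 lower at an unadjusted p under 0.05, and 10 higher and 0 lower by DESeq2). All 12 fell at 7 days (median -0.82). The 11 became 4 without control replicate 2 or 2-day replicate 1 and 5 without 2-day replicate 3.

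Hist1h4i was the most abundant H4 gene per kilobase in controls and at 2 days (18.6 and 26.4 CPM per kb). It measured 13.1, 13.3 and 14.1 CPM in the controls, 18.3, 17.9 and 21.5 CPM in the 2-day samples and 4.41, 5.37 and 4.14 CPM in the 7-day samples. The groups did not overlap, with 2 days highest and 7 days lowest. The log2 fold change was 0.51 ± 0.11 at 2 days (adjusted p = 0.0024) and -1.54 ± 0.12 at 7 days (adjusted p = 1.1e-08) against control. Hist1h4n (0.51 at 2 days and -0.77 at 7 days) and Hist1h4h (0.61 and -0.46) passed in the same directions, but Hist1h4h lost its 2-day call without control replicate 2 or 2-day replicate 1 and its 7-day call without control replicate 1, 7-day replicate 1 or 7-day replicate 3.

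Among the H3 genes, Hist1h3d averaged 1.79 ± 0.19 CPM in the controls, 2.78 ± 0.157 CPM in the 2-day samples and 1.32 ± 0.263 CPM in the 7-day samples (SD, n = 3). Its log2 fold change was 0.62 at 2 days and -0.46 at 7 days, and the 7-day call was lost without control replicate 2 or 7-day replicate 3 (adjusted p 0.15 and 0.18). Hist1h3b (0.61 at 2 days and -0.59 at 7 days) lost its 2-day call when any of 5 of the 6 samples compared was left out and its 7-day call when control replicate 2 or 7-day replicate 3 was left out. Hist2h3c2, on chromosome 3, measured 1.74, 1.26 and 1.28 CPM in the controls, 2.57, 2.7 and 2.52 CPM in the 2-day samples and 5.06, 4.2 and 4.32 CPM in the 7-day samples. It rose without overlap at both times, by 0.88 ± 0.17 (adjusted p = 0.0014) and 1.68 ± 0.16 (adjusted p = 1.2e-07) against control, and 37.4% of its words are its own.

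**Figure D4:**
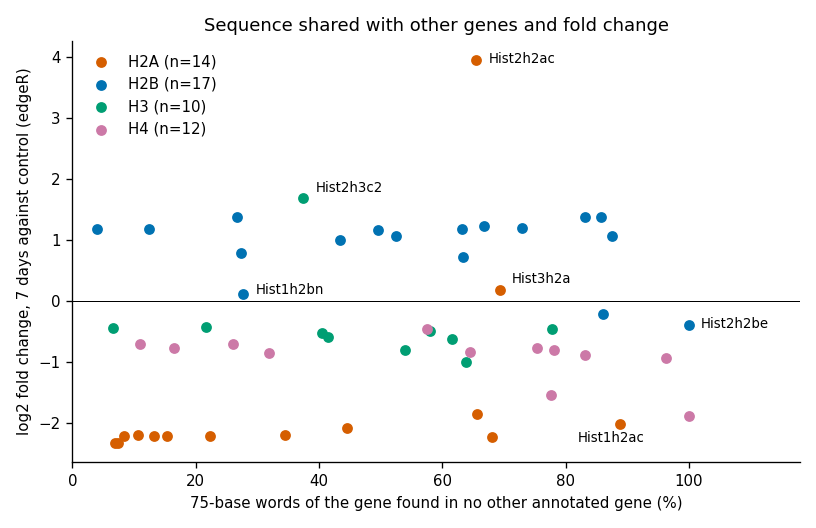
Log2 fold change (edgeR) at 7 days against control of the 53 tested core replication-dependent genes against the percentage of each gene's 75-base words found in no other annotated gene. H2A genes near -2 and H2B genes near 1 are seen both at low and at high percentages, and the labelled genes lie away from their family or are described in the text.

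The calls were also counted by how much of a gene's sequence is its own. Of 28 tested core replication-dependent genes with at least 50% unique words, 20 rose and 0 fell at 2 days, and 9 rose and 17 fell at 7 days against control. Of the 25 with fewer, 14 rose and 0 fell at 2 days, and 7 rose and 15 fell at 7 days. Over all genes tested 13.1% rose and 10.6% fell at 2 days, and 40.5% rose and 41.8% fell at 7 days.

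The core variants, which are made outside S phase as well, were called in both directions at 7 days. At 2 days 2 of 7 tested rose and 0 fell, where 13.1% of all genes rose and 10.6% fell. At 7 days 2 rose and 4 fell against control, where 40.5% of all genes rose and 41.8% fell, so these counts of 7 genes lie near the background. H2afz, which encodes the H2A.Z.1 variant found at promoters, was the most abundant member per kilobase in controls and at 2 days (370 and 355 CPM per kb, and 166 at 7 days, where H1f0 was higher). It measured 653, 634 and 687 CPM in the controls, 634, 575 and 680 CPM in the 2-day samples and 286, 309 and 289 CPM in the 7-day samples. Its 7-day samples lay far below both other groups, which overlapped. The log2 fold change was -1.16 ± 0.08 at 7 days against control (adjusted p = 4.5e-09).

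H2afv, which encodes the closely related H2A.Z.2, did the opposite. It measured 21.7, 20.7 and 22.1 CPM in the controls, 28.1, 22.2 and 28.1 CPM in the 2-day samples and 69.4, 72.6 and 67.4 CPM in the 7-day samples. The 7-day samples were all above the rest, and the second 2-day sample lay close to the highest control. The log2 fold change at 7 days against control was 1.70 ± 0.09 (adjusted p = 1.9e-10), and that at 2 days was 0.28 ± 0.10 (adjusted p = 0.045), a call lost when any of 6 single libraries was left out (adjusted p 0.058 to 0.18; control replicates 1, 2 and 3, 2-day replicates 1 and 3, 7-day replicate 2). The share of H2afv in the CPM per kb of both genes was 3.44 ± 0.0556% in controls, 4.31 ± 0.284% at 2 days and 20.5 ± 0.34% at 7 days (SD, n = 3). None of the 7-day samples overlapped the others, and 7 days against control gave p = 0.1 in the two-sided exact permutation test, the smallest possible here.

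H3f3a and H3f3b encode the same protein, H3.3, the variant placed in chromatin independently of replication. H3f3b measured 479, 492 and 521 CPM in the controls, 561, 548 and 636 CPM in the 2-day samples and 343, 384 and 381 CPM in the 7-day samples, and H3f3a measured 60.8, 65.8 and 77.0 CPM, 71.1, 77.4 and 91.0 CPM, and 117, 124 and 146 CPM in the same groups. For both the 7-day samples were apart from the controls, low for H3f3b and high for H3f3a. The log2 fold changes at 7 days against control were -0.43 ± 0.09 for H3f3b (adjusted p = 0.00027) and 0.93 ± 0.11 for H3f3a (adjusted p = 1.8e-06), and neither passed at 2 days in edgeR (0.23 in both, adjusted p 0.07 and 0.16). At 2 days H3f3b did pass with the DESeq2 Wald test (adjusted p = 0.035), and H3f3a passed in edgeR without control replicate 3 (adjusted p = 0.046). H3f3a made up 10.4 ± 0.73% of their CPM per kb in controls, 10.4 ± 0.614% at 2 days and 22.8 ± 1.56% at 7 days (exact permutation p = 0.1 for 7 days against control). Of the words of H3f3a 76.9% are its own, and of those of H2afz 71.2%. Of the exon bases of H3f3a 22.8% lie within other annotated genes.

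**Figure D5:**
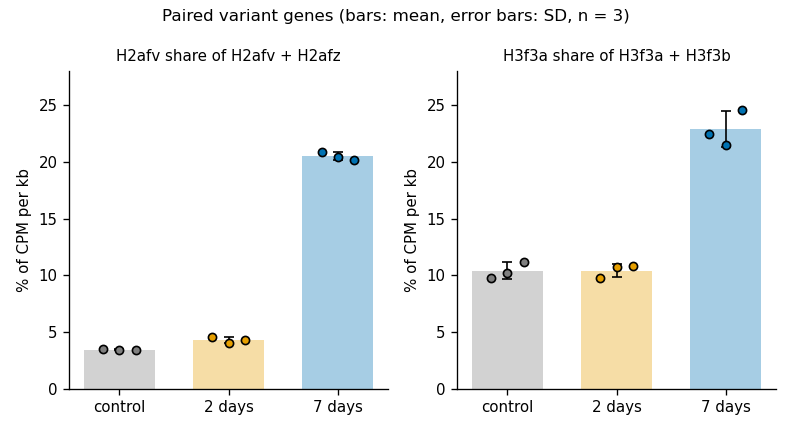
Share of H2afv in the summed CPM per kb of H2afv and H2afz (left) and of H3f3a in that of H3f3a and H3f3b (right), in percent, by sample and group; points are samples, bars are means and error bars are SDs (n = 3). At 7 days the shares average 20.5% and 22.8%, above every control and 2-day sample.

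H2afx, whose protein is phosphorylated around DNA breaks and whose mRNA has both a stem-loop and a poly(A) form, measured 124, 124 and 104 CPM in the controls, 153, 150 and 149 CPM in the 2-day samples and 52.5, 50.8 and 45.3 CPM in the 7-day samples. The groups were fully separate, with 2 days highest and 7 days lowest. The log2 fold change against control was 0.36 ± 0.08 at 2 days (adjusted p = 0.0057) and -1.24 ± 0.09 at 7 days (adjusted p = 2.9e-09). H2afy, which encodes macroH2A1, averaged 131 ± 11.4, 122 ± 4.04 and 66.5 ± 5.36 CPM in controls, at 2 days and at 7 days, and fell at 7 days (log2 fold change -0.97 against control). H2afj averaged 47.2 ± 4.94, 49.4 ± 5.94 and 41.0 ± 5.18 CPM in the same order and was not called against control at either time, though at 7 days it passed as lower without control replicate 3 (adjusted p = 0.038) or with library size as the sole scaling (adjusted p = 0.00013). Its value of -0.27 at 7 days against 2 days passed (adjusted p = 0.04), but was lost when any of 4 libraries was left out (control replicate 2, 2-day replicates 1 and 3, 7-day replicate 3) or with DESeq2. Cenpa, the centromeric H3 variant outside the naming rule, averaged 121 ± 4.6 CPM in the controls, 123 ± 9.15 CPM in the 2-day samples and 36.4 ± 1.85 CPM in the 7-day samples.

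The 14 members with too few counts to test are accounted for as follows. In 8 every sample had a count of 0. In 5 of these, Hist2h2aa1, Hist2h2aa2, Hist2h2bb, Hist2h3b and Hist2h3c1, all exon bases lie within other annotated genes, which holds for no other member. The other 3, H2afb1, H2afb2 and H2afb3, are X-linked genes known from testis. H1fx had 4 reads over the controls, 16 at 2 days and 4 at 7 days, Hist4h4 had 15, 28 and 7, and H2afy2 had 4, 9 and 6. Hist1h1t, Hist1h2aa and Hist2h2ab had at most 4 reads in any group.

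Most genes that act with histones were lower at 7 days, when 41.8% of all genes tested fell and 40.5% rose (10.6% and 13.1% at 2 days). All 24 tested genes of DNA synthesis fell at 7 days against control (median log2 fold change -2.04), and 14 had fallen at 2 days with 0 higher (17 lower and 0 higher at an unadjusted p under 0.05, 14 lower and 0 higher by DESeq2). Examples at 7 days are Mcm4 of the replicative helicase (-2.27), Cdc45 (-2.32) and Cdc6 (-2.32), which load and activate it, and Rrm1 of ribonucleotide reductase (-2.14). Of 18 genes for histone transcription and 3′ end processing 17 fell and 1 rose at 7 days (median -0.90), and 3 fell and 0 rose at 2 days (8 lower and 0 higher at an unadjusted p under 0.05, 4 lower and 0 higher by DESeq2).

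Slbp, whose protein binds the stem-loops shown above, averaged 79.7 ± 4.92 CPM in the controls, 74.9 ± 5.71 CPM in the 2-day samples and 29.4 ± 1.22 CPM in the 7-day samples (SD, n = 3). Its log2 fold change against control was -0.09 at 2 days (adjusted p = 0.46) and -1.44 at 7 days (adjusted p = 3.1e-10). The U7 snRNP genes Zfp473 (-2.63) and Lsm11 (-1.58) and the cap-binding gene Ncbp1 (-1.21) also fell at 7 days, and Tut7, a uridyltransferase named as the exception, rose by 0.87. Of 21 histone chaperone genes 18 fell and 1 rose at 7 days (median -1.36), and 6 fell and 0 rose at 2 days (11 lower and 0 higher at an unadjusted p under 0.05, 8 lower and 0 higher by DESeq2). Among them Asf1b (-2.21) and Nasp (-2.11), which carry H3 and H4, Npm1 (-1.96) and Ssrp1 of the FACT complex (-1.62) fell at 7 days.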

How the data were processed

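RNA was measured in 9 samples, 3 per group, as grouped by their titles. The authors deposited 1 table of raw counts per gene; per the submitters' processing notes the tools were STAR 2.7.0e, featureCounts and DESeq2 with build mm10/GRCm38. Per the labels' protocols the libraries were poly(A)-selected with a kit that does not mark strand. The sources used here do not state the read length, the strand setting or how reads that fit several places were counted.

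Gene IDs were matched to GENCODE M21 (21236 of 21253). Counts were filtered with filterByExpr and scaled with TMM (factors 0.785 to 0.8735 at 7 days, 1.073 to 1.125 in the other groups). They were tested with edgeR 4.0.16 under R 4.3.3 (glmQLFit, glmQLFTest, all 9 samples, group as the sole term). The Benjamini-Hochberg adjustment ran over 12535 genes, two-sided, with calls at 0.05. The SE is the absolute log2 fold change over the square root of F. CPM are TMM-scaled. The code was tested on simulated data. Depth limits genes under about 1 CPM, where SEs reach 0.59.

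Named members were the tested linker and variant genes, the 3 most abundant per core family, and the 5 largest changes each way at 7 days. Up to 4 genes per list with the smallest p were added. The members and lists were chosen with earlier results of these data known. Alternatives were other scalings, no filter, DESeq2 1.42.0, a replicate block, 2 groups alone and leaving out each sample.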

Additional observations from a re-analysis of the deposited data

Results flagged for a closer look

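A set of 18 members was higher than control at 2 days and lower than control at 7 days, each past the threshold in both, and the difference between the times was itself tested as 7 days against 2 days in edgeR. The log2 fold changes for 7 days against 2 days among H4 genes were -1.38 for Hist1h4a, -1.49 for Hist1h4b, -1.41 for Hist1h4c, -1.56 for Hist1h4d, -1.45 for Hist1h4f, -1.07 for Hist1h4h, -2.05 for Hist1h4i, -1.40 for Hist1h4j, -1.39 for Hist1h4k, -1.26 for Hist1h4m and -1.28 for Hist1h4n. Among H3 genes they were -1.20 for Hist1h3b, -1.08 for Hist1h3d, -1.41 for Hist1h3e, -1.26 for Hist1h3f and -1.58 for Hist1h3g. H2afx was at -1.61 and Hist2h2be at -0.79. Of all genes tested 13.1% were higher at 2 days and 41.8% lower at 7 days, each against control. The share of all genes with both calls was not computed, so the 18 have no background of their own. Many of these paired calls rest on single libraries. Without control replicate 2, 6 of the 18 kept both calls, 9 did without 2-day replicate 1 or without 2-day replicate 3, 11 without control replicate 1, and 13 to 16 without any other single library. With the DESeq2 Wald test 13 did. The 6 that kept both calls under every alternative run were H2afx, Hist1h3g, Hist1h4i, Hist1h4j, Hist1h4m and Hist1h4n. The 7-day calls of Hist1h3e and Hist1h3f were lost when any 1 of 5 and of 7 libraries was left out, and with the DESeq2 Wald test (adjusted p = 0.16 and 0.15). Both times share their controls, so the pair of calls against control is not independent. Members of a family that share sequence can share reads, so the H4 values are not separate observations.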

How the results depend on the processing

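Of 258 counts and summed levels recomputed under an alternative, 244 stayed within a set tolerance of the main value. For a log2 ratio of sums this was a shift smaller than the SD between samples. For a count it was a moderate fold difference. Thus 32 members lower at 7 days against control with the DESeq2 Wald test, in place of 38, fell within it. With library size as the sole scaling the median of all genes shifted by -0.40 at 7 days against control and by -0.42 at 7 against 2 days. The log2 ratios of summed CPM at 7 days against control became 0.64 for linker replication-dependent, -1.20 for core replication-dependent, 0.18 for linker replacement and -1.0 for core variant genes, against 1.04, -0.80, 0.58 and -0.59. At 7 against 2 days they became -0.17 and -0.13 for the linker classes, a reversal of 0.25 and 0.29, and -1.34 and -1.10 for the core classes. There 3 members were higher in place of 19, and H1f0 (-0.13), Hist1h1c (-0.15), Hist1h1d (-0.39) and Hist1h1e (-0.11) reversed. With DESeq2 size factors the linker replacement ratio at 7 days was 0.62.

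Among members with at least 50% unique words, a choice made after seeing the data that leaves fewer genes, 26 were higher at 2 days, 23 lower at 7 days and 25 lower at 7 against 2 days. Leaving out each sample gave 26 to 40 members higher at 2 days, and uncalled values that crossed 0 for H2afj (-0.02 to 0.15) and Hist1h1b (-0.25 to 0.16) at 2 days and Hist1h1d (-0.05 to 0.11) at 7 against 2 days. The cause was not tested.

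Same-numbered samples had deviation correlations of -0.13 to 0.48, and not every sample correlated best with its own number, so the numbers were not taken as pairs. With the replicate block 45 members were higher at 2 days, and 22 were higher and 38 lower at 7 days. With it H3f3b and H3f3a also passed at 2 days (edgeR, adjusted p 0.012 and 0.0058), and H2afj at 7 days (0.048). Depth limits members under about 1 CPM, such as Hist1h1b and Hist2h4.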
